A study of Mus musculus with 4 samples.

Results

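The spots described here were the capture spots of caerulein-treated mouse pancreas with the highest combined share of Lcn2, Ccl9, Hmox1 and Atf3 transcripts. In each of 4 tissue sections, spots with at least 500 UMIs (unique molecular identifiers, each standing for 1 captured molecule) were ranked by the summed UMIs of these 4 genes divided by all UMIs of the spot, and up to 300 spots with at least 2 UMIs of the 4 genes were kept. This gave 963 chosen spots of 26960, with 300 in WT1, 63 in WT2, 300 in KO1 and 300 in KO2. They are called the chosen spots, and the measured values of the 4 genes, which chose them, are given only as a description.

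Sections came from C57Bl/6 mice, 4 weeks old, that were fasted for 12 h, given 8 hourly injections of caerulein at 50 µg/kg and killed 18 h after the first dose. The WT mice carried PDX1-Cre alone, and the KO mice carried PDX-Cre with the EHMT2 knockout. Caerulein over-stimulates the acinar cell and is a standard way to induce acute pancreatitis, and Ehmt2 encodes the histone methyltransferase G9a. All 4 sections were injured, so no uninjured tissue was compared, and the Cre driver deletes Ehmt2 in pancreatic epithelium and not in the immune or stromal cells that share a spot with it. The sections held 44308142, 8870484, 7137781 and 8622684 UMIs in WT1, WT2, KO1 and KO2. A spot is a small area of tissue that can hold several cells, and with 2 sections in each genotype a p-value measures the spread between these sections only. In tissue spots, more cells of a type and more RNA per cell cannot be told apart.

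The 4 genes belong to different branches of the response to injury. Lcn2 encodes lipocalin 2, an iron-carrier-binding protein released by stressed epithelium and neutrophils. Ccl9 encodes a chemokine that attracts myeloid cells and is made largely by them. Hmox1 encodes heme oxygenase 1, which breaks down heme and is abundant in macrophages and in oxidatively stressed cells, and Atf3 encodes a transcription factor switched on by many kinds of cell stress.

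The choice was led by Ccl9 in the KO sections. Ccl9 held 66.2% of the UMIs of the 4 genes in the chosen spots of KO1 and 63.9% in KO2, against 43.6% in WT1 and 27.0% in WT2. In all spots with at least 500 UMIs it already held 50.9% and 48.7% in KO1 and KO2, and 34.8% and 28.5% in WT1 and WT2. In the chosen spots it held more UMIs than each of the other 3 genes in 199 chosen spots of KO1 and 193 of KO2, in 88 of WT1 and in 6 of WT2. Lcn2 led 34, 31, 32 and 6 chosen spots in the same order of sections, Hmox1 led 18, 15, 29 and 8, and Atf3 led 2, 3, 10 and 3. The remaining spots were ties.

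**Figure D1:**
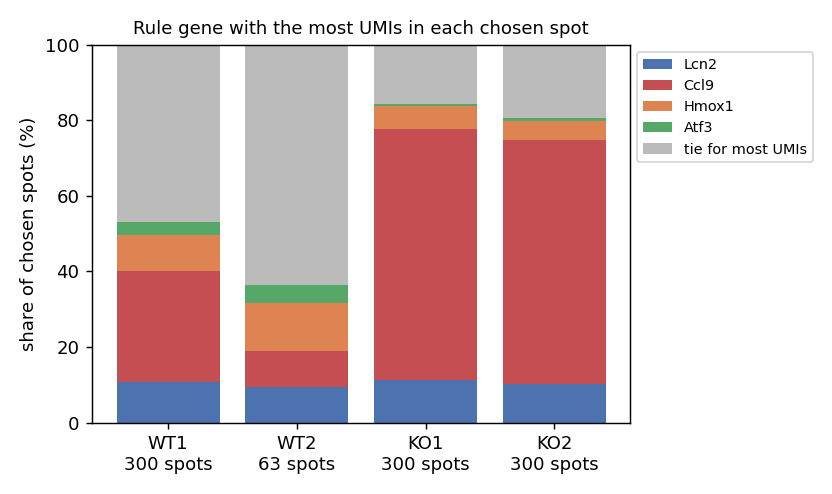
Share of the chosen spots of each section (percent, vertical axis) in which 1 of the 4 genes held strictly more UMIs than each other, with ties in grey. Ccl9 led 199 of the 300 chosen spots of KO1 and 193 of the 300 of KO2.

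Most chosen spots held UMIs of only 1 or 2 of the 4 genes. In KO1, 89 spots had 1 of the genes, 153 had 2, 55 had 3 and 3 had all 4. In KO2 the counts were 106, 147, 41 and 6, and in WT1 they were 96, 172, 31 and 1. In WT2, 23 spots had 1 gene and 40 had 2. No spot of WT2 with at least 500 UMIs had more than 2 UMIs of the 4 genes.

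The score at which a spot entered differed between sections. The last spot kept had 2.68 UMIs of the 4 genes per 10000 UMIs in WT1, 6.46 in WT2, 35.4 in KO1 and 32.0 in KO2. The first spot left out, among those with at least 2 UMIs of the genes, stood at 2.67, 35.4 and 32.0 in WT1, KO1 and KO2, and none was left out in WT2. The median chosen spot held 4.17, 20.3, 42.7 and 38.7 in WT1, WT2, KO1 and KO2. The highest of WT2 was 37.2, above the score at which a spot entered in both KO sections, and the highest of WT1 was 26.2. All 63 chosen spots of WT2 held exactly 2 UMIs of the 4 genes, so scores there differed only by the depth of the spot. Of the 300 chosen spots, 204 held 2 UMIs in WT1, 28 in KO1 and 64 in KO2, and the rest held more. A high score in WT2 thus does not show as many UMIs of the genes as in KO. The median depth of chosen and other spots was 5682 and 6390 UMIs in WT1, 983 and 873 in WT2, 814.5 and 989 in KO1, and 810.5 and 1131 in KO2. Because of this gap, the chosen spots were also set against the 3 other spots of their section nearest in depth to each of them, called nearest-depth spots (2889 in all).

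The name given to this score, an injury response, was tested by leaving out 1 gene at a time: the spots were chosen again by the other 3 genes, and the gene left out was read in them. None of the 4 genes rose past the threshold in spots chosen by the other 3. The fold was fitted with TMM factors, a scaling between libraries, and is given beside it with library sizes as the scale. Lcn2 stood at 18.0 CPM (UMIs per 1000000 UMIs) in such spots of WT1 and 17.0 in the others, at 170.0 and 260.2 in KO1, and at 156.0 and 257.1 in KO2. Against all other spots its level was thus higher in WT1 and lower in both KO sections. The fitted log2 fold change of Lcn2 was -0.91 ± 0.28 (SE; edgeR quasi-likelihood test, Benjamini-Hochberg adjusted p = 0.205), or -0.47 ± 0.17 with library sizes (edgeR adjusted p = 0.172). Against nearest-depth spots it was -0.65 ± 0.18 with TMM (edgeR adjusted p = 0.0245), so there Lcn2 passed as lower. Without WT2 it was -0.70 ± 0.17 (edgeR adjusted p = 0.00822). In WT1 Lcn2 stood at 18.0 CPM in such spots and 19.7 in the nearest-depth spots. Library sizes were not tried as the scale for this comparison.

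Hmox1 left out of the choice stood at 232.1 CPM in chosen and 154.2 in other spots of KO1, 203.1 and 125.4 in KO2, and 19.5 and 17.5 in WT1. In nearest-depth spots Hmox1 stood at 145.6, 113.7 and 19.0 CPM in KO1, KO2 and WT1, so WT1 was close to level. It was higher in the chosen spots of these 3 sections, with a fitted log2 fold change of 0.03 ± 0.24 with TMM (edgeR adjusted p = 0.984), 0.47 ± 0.15 with library sizes (edgeR adjusted p = 0.121) and 0.35 ± 0.17 against nearest-depth spots (edgeR adjusted p = 0.585). Ccl9 stood at 600.1 and 494.2 CPM in KO1 and at 416.1 and 435.2 in KO2, and its log2 fold change was -0.19 ± 0.21 (edgeR adjusted p = 0.867), or 0.065 with library sizes. Atf3 had a log2 fold change of -0.71 ± 0.33 (edgeR adjusted p = 0.573), or -0.18 ± 0.21 with library sizes (edgeR adjusted p = 0.818). In WT2 each gene had 0 UMIs in spots chosen by the other 3, which follows from the absence of spots with 3 such UMIs, so these zeros were set by the choice of spots. Without WT2 the library-size folds were -0.45 for Lcn2, 0.066 for Ccl9, 0.49 for Hmox1 (edgeR adjusted p = 0.057) and -0.16 for Atf3, and none passed. A joint rise of the 4 genes was not shown: Hmox1 was higher in each section where it could be, and Lcn2 was lower in both KO sections. The spots are therefore called by how they were chosen.

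**Figure D2:**
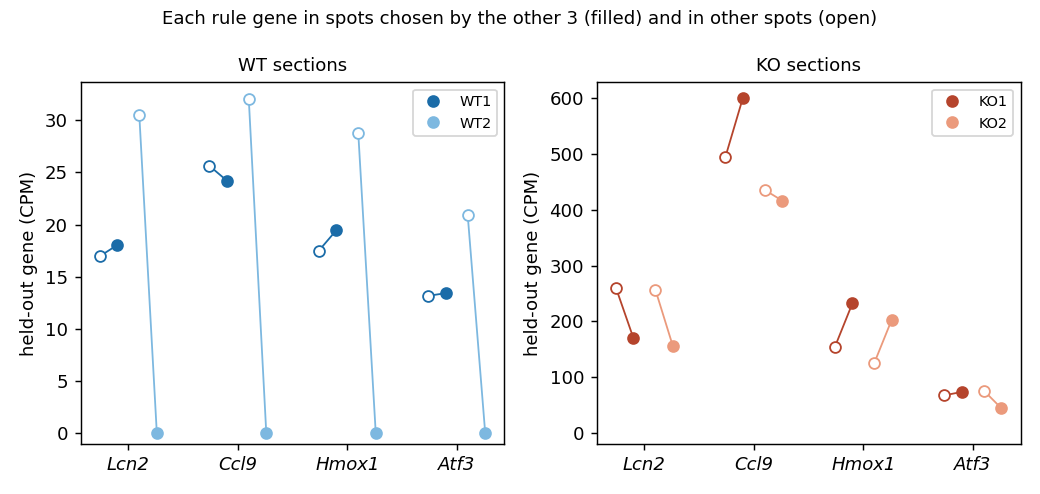
Level of each gene (CPM, vertical axis, separate scales for WT and KO sections) in spots chosen by the other 3 genes (filled) and in all other spots (open), 1 pair per section. Hmox1 was higher in the filled point of both KO sections (232.1 and 203.1 CPM), and Lcn2 was lower (170.0 and 156.0 CPM).

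Each spot's UMIs were also split at random in 2, up to 300 spots with at least 1 UMI of the 4 genes were chosen on one part, a lower floor than in the rule, and the genes were read in the other part. Here Ccl9 was 1217 CPM in chosen and 467.8 in other spots of KO1, 993.3 and 410.5 in KO2, 60.8 and 24.5 in WT1, and 57.4 and 35.0 in WT2. It was higher in all 4 sections, and its log2 fold change was 1.29 ± 0.14 with library sizes as the scale, or 0.72 ± 0.25 with TMM factors. Hmox1 was also higher in all 4 sections, with 29.5, 32.8, 266.2 and 197.2 CPM in chosen and 16.7, 26.3, 156.5 and 133.0 CPM in other spots of WT1, WT2, KO1 and KO2. Its log2 fold change with library sizes was 0.68 ± 0.19, and 0.14 ± 0.30 with TMM. Lcn2 was higher in all 4 sections too, with 20.3, 49.2, 296.6 and 260.6 CPM against 17.1, 28.7, 239.5 and 243.3 CPM, and Atf3 in 3 of 4. In the chosen spots of WT2, Ccl9, Hmox1, Lcn2 and Atf3 had only 7, 4, 6 and 4 UMIs, so their direction there is uncertain. Each gene took part in the choice here, so these values are a description and no test is drawn from them. The split does not ask whether the genes moved together.

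Genes outside the choice were then compared between the chosen and the other spots. Against spots of like depth, 5 of 19 tested macrophage genes were higher in the chosen spots with TMM and none lower, and 9 were higher with library sizes. Of 26 digestive enzyme genes 11 were lower with TMM and 3 with library sizes, and none was higher. With TMM factors, 106 of 19750 genes passed the threshold (0.537%), 3 higher and 103 lower. This split depended on the scale: with library sizes it was 272 higher and 10 lower (1.43% called), and with TMM factors over abundant genes 151 and 48 (1.01%). Against nearest-depth spots, matched in depth per spot but 3 times as many, 82 of 8241 genes passed with TMM (0.995%), 49 higher (0.595%) and 33 lower (0.4%). There too the split moved with the scale, to 130 higher and 4 lower with library sizes (1.63%) and 90 and 10 with TMM over abundant genes (1.21%). All 49 higher genes were called on each of these scales, but only 4 and 10 of the 33 lower genes were. Without KO1 the counts were 10 higher and 1 lower with TMM, and without KO2 19 and 1. With TMM, 0 genes passed among spots with at least 1000 UMIs, and 0 when enzyme UMIs were left out of the score's denominator (1159 and 1403 at an unadjusted p under 0.05). The median log2 fold change of all genes was -0.23 with TMM, 0.22 with library sizes, 0.12 with TMM over abundant genes and -0.04 against nearest-depth spots.

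The 3 genes higher with TMM were Mrc1, Ccl6 and F13a1, and all 3 were also higher against nearest-depth spots. Against all other spots with TMM, no gene was called higher without KO1 or without KO2. The log2 fold change of Mrc1 was then 0.83 ± 0.32 and 0.89 ± 0.36 (edgeR adjusted p = 0.367 and 0.555). With DESeq2 against all other spots, Ccl6 passed (adjusted p = 0.00197), F13a1 did not (adjusted p = 0.104) and Mrc1 was given no adjusted p. Against nearest-depth spots these 3 genes passed the edgeR test with any 1 section left out and on each scale. Mrc1 encodes the mannose receptor CD206 of tissue macrophages. It stood at 12.5, 43.8, 243.1 and 329.2 CPM in the chosen spots of WT1, WT2, KO1 and KO2, against 8.35, 14.6, 102.0 and 145.1 CPM in nearest-depth spots. The chosen spots were higher in every section, though the WT2 value rested on 3 UMIs. Apart from F13a1 and genes described as members of a list, genes were named here only if they passed with 1 direction in all 4 sections, so that agreement was set by the naming. The log2 fold change of Mrc1 was 1.0 ± 0.25 against other spots (edgeR adjusted p = 0.0141) and 0.96 ± 0.16 against nearest-depth spots (edgeR adjusted p = 7.39e-06).

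Ccl6 encodes a chemokine of the same family as Ccl9, from a neighbouring gene. Its levels were 134.4, 146.1, 3341 and 2804 CPM in the chosen spots of WT1, WT2, KO1 and KO2, and 75.2, 112.0, 1426 and 1198 CPM in nearest-depth spots. Every section was higher, and the log2 fold change was 0.92 ± 0.14 against nearest-depth spots (edgeR adjusted p = 6.23e-08). F13a1 encodes the A subunit of coagulation factor XIII, made by monocytes and some macrophages, and was named after its values were seen. It had 501.9 and 484.4 CPM in the chosen spots of KO1 and KO2, 198.7 and 211.9 in nearest-depth spots, 12.0 against 7.97 in WT1, and 0 UMIs in the chosen spots of WT2 against 29.2 CPM. It was higher in 3 of 4 sections.

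The sequences upstream of Ccl9, Ccl6 and Mrc1 are shown because Ccl9 led the choice and the other 2 genes moved with it. They are the 250 bases before the start of each gene, 5′ to 3′ on the gene's strand, from RefSeq on GRCm38.p6: Ccl9 at chr11:83578637-83578886 and Ccl6 at chr11:83593088-83593337, both on the minus strand, and Mrc1 at chr2:14229164-14229413 on the plus strand. Capitals mark every match, on either strand, of 10 short patterns.
Ccl9: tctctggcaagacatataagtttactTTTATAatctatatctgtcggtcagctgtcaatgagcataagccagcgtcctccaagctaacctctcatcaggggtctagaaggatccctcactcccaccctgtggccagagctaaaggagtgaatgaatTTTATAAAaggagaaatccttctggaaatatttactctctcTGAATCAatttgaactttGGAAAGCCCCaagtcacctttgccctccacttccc
Ccl6: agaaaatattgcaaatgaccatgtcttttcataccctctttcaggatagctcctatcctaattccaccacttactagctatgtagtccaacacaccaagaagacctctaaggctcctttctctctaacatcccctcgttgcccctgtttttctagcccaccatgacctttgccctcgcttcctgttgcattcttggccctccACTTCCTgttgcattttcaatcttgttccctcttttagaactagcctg
Mrc1: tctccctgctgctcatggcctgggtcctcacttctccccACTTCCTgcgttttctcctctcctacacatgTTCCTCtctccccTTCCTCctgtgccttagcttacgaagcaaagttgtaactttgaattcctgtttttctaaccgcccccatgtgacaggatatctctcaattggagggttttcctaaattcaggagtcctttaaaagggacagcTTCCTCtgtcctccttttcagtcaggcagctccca
The patterns were chosen when the genes were already known, and all 10 are given. AGGAAGT matched once in Ccl6 and once in Mrc1, and is found in 7.69% of 32851 promoters. GAGGAA matched 3 times in Mrc1 (23.3% of promoters). TGANTCA matched once in Ccl9 (6.75%), as did a 10-letter form of the NF-kB site (1.41%), and TATAAA matched 3 times in Ccl9 (12.4%), of which the 2 nearer the gene overlap on opposite strands. GAGGAAGT, which contains both GAGGAA and AGGAAGT, had no match in the 3 sequences, nor had TGACGTCA, TTGCNNAA, TGCTGA or CACGTG (2.44%, 1.55%, 9.56%, 16.1% and 6.02% of promoters). No pattern was found in all 3, and a match is not evidence of binding.

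Other genes higher against nearest-depth spots, named by repeating the rule for named genes on this comparison after values were seen, follow. Aif1, a macrophage and microglial marker, stood at 14.8, 58.4, 317.6 and 211.9 CPM in the chosen spots of WT1, WT2, KO1 and KO2, and at 9.87, 9.74, 158.2 and 99.7 in nearest-depth spots (log2 fold change 0.83 ± 0.16, edgeR adjusted p = 0.000243). Dok2, an adaptor of blood cells, had a log2 fold change of 1.13 ± 0.26, Gda, guanine deaminase, 0.90 ± 0.14, and S100a4, a calcium-binding protein of motile cells, 0.83 ± 0.16. Evi2a, Rassf4, Trpv2, Dab2 and Cyth4 were also among them.

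Among the genes lower with TMM, the pancreatic enzymes had the most UMIs. Cela2a, an elastase, stood at 63031, 52105, 3846 and 3247 CPM in the chosen spots of WT1, WT2, KO1 and KO2, and at 69242, 63205, 7998 and 7018 CPM in other spots. The difference was larger in the KO sections, and the log2 fold change was -1.19 ± 0.11 with TMM (edgeR adjusted p = 1.05e-21). It was -0.64 ± 0.19 with library sizes (edgeR adjusted p = 0.0576), -0.86 with enzyme UMIs left out of the score (edgeR adjusted p = 0.413) and -0.75 against nearest-depth spots, which did not pass (edgeR adjusted p = 0.0566). Spink1, the trypsin inhibitor of acinar cells, stood at 2740, 1066, 741.1 and 310.3 CPM in chosen and 2814, 1256, 1270 and 606.8 CPM in nearest-depth spots. It was lower in every section, with a log2 fold change of -0.68 ± 0.15 with TMM (edgeR adjusted p = 0.00155) and -0.46 ± 0.13 with library sizes (edgeR adjusted p = 0.0215).

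Prss1, a trypsinogen, was also lower in every section, with 402.7, 277.5, 2039 and 2251 CPM in chosen and 476.7, 379.8, 3174 and 3242 CPM in nearest-depth spots (edgeR adjusted p = 0.00114). Reg3b, a secreted lectin induced in injured acinar cells, stood at 3573, 2863, 380.3 and 219.5 CPM in chosen and 3772, 3370, 641.8 and 421.3 CPM in nearest-depth spots (log2 fold change -0.67 ± 0.16, edgeR adjusted p = 0.00429, or 0.0706 with library sizes). Spink1, Prss1 and Reg3b did not pass without KO1 or without KO2 (edgeR adjusted p from 0.146 to 0.585). Trypsinogens are near-identical genes, so their separate values are uncertain. Try4 and Gm2663 were lower with TMM (log2 fold change -0.63 and -0.62) but did not pass with library sizes (edgeR adjusted p = 0.142 and 0.0816). Procr, Rap1gap2, P2rx1 and Ptger3 were lower with TMM against all other spots. Against nearest-depth spots they did not pass (edgeR adjusted p = 0.0706, 0.87, 0.45 and 0.143).

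**Figure D3:**
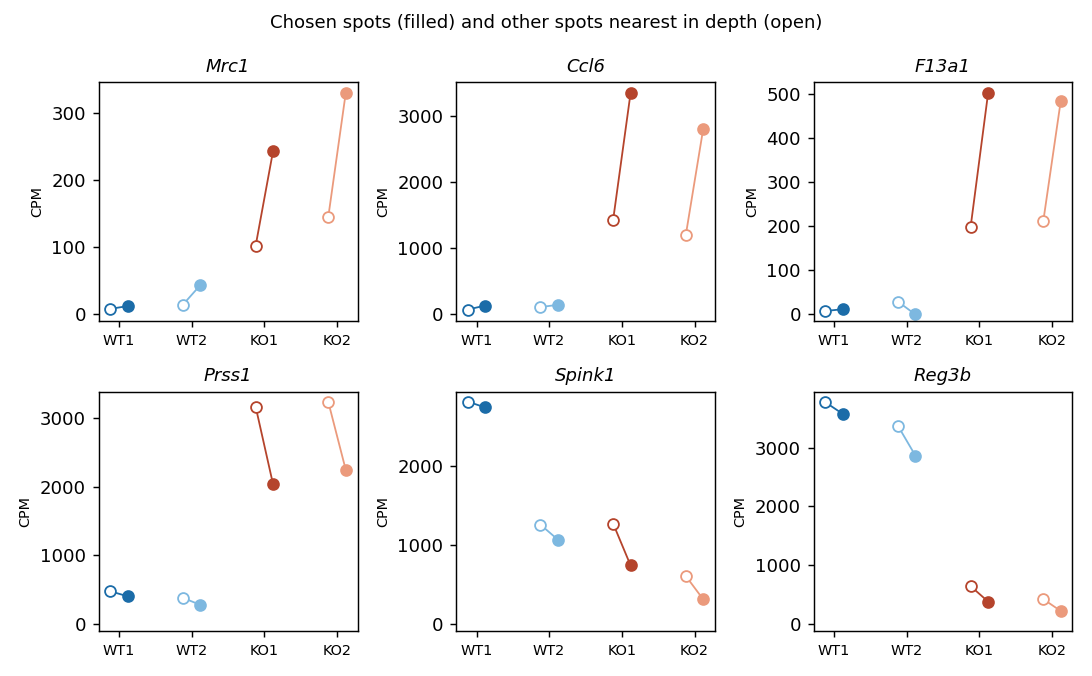
Level of 6 genes (CPM, vertical axis) in the chosen spots (filled) and the other spots nearest in depth (open) of each section. Mrc1 and Ccl6 were higher in the chosen spots of all 4 sections, F13a1 in 3 of 4, and Prss1, Spink1 and Reg3b were lower in all 4; except for F13a1, genes were named only if all 4 sections went 1 way.

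Gene lists were read as summed levels in each section. The macrophage list (24 genes) had 562.7, 949.5, 7258 and 4624 CPM in the chosen spots of WT1, WT2, KO1 and KO2, and 388.0, 608.7, 4494 and 3171 CPM in nearest-depth spots. All 4 sections were higher, by a mean log2 ratio of 0.60 ± 0.08 (SD, n = 4 sections; exact sign-flip permutation test, two-sided, p = 0.125, the smallest this design allows). Of 19 genes of the list tested against nearest-depth spots 5 were higher and 0 lower, with a median log2 fold change of 0.44 beside -0.04 over all genes, and with library sizes 9 were higher, with a median of 0.59 beside 0.13. The 5 were Csf1r, the receptor for the macrophage growth factor, Mrc1, the Fc receptor gene Fcgr1, and the signalling adaptors Tyrobp and Fcer1g. Ctss, a lysosomal protease and the most abundant member, stood at 48.4, 43.8, 1129 and 639.5 CPM in chosen and 35.9, 82.8, 618.2 and 447.8 in nearest-depth spots, and did not pass with TMM (edgeR adjusted p = 0.0587) but did with library sizes (edgeR adjusted p = 0.000507). No gene of the list was at 0 in the chosen spots.

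The chemokine and cytokine list, which leaves out Ccl9, had 315.5, 774.2, 5450 and 4276 CPM in chosen and 214.5, 467.5, 3107 and 2667 CPM in nearest-depth spots. Every section was higher, and Ccl6 made up 59% of its UMIs. The median log2 fold change of its 15 tested genes was -0.08 with TMM, beside -0.04 over all genes. With library sizes it was 0.07 beside 0.13. Ccl6 and Ccr2, the receptor of inflammatory monocytes, were the 2 of 15 tested genes that passed. The neutrophil list, with Mmp9 the most abundant, was higher in all 4 sections by a mean log2 ratio of 0.36 ± 0.15 (n = 4), but 0 of its 7 tested genes passed with TMM and 1, Mmp9, with library sizes. The fibroblast and matrix list was higher by 0.31 ± 0.18 (n = 4), with Fn1, fibronectin, as the 1 gene of 18 that passed.

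Lists of epithelial injury and stress differed in direction. The acute phase and IL-6 family list, to which Lcn2 is linked, was higher in all 4 sections by a mean log2 ratio of 0.14 ± 0.08 (n = 4), and the list of ER chaperones and export by 0.22 ± 0.10 (n = 4), but 0 of 17 and 0 of 19 tested genes passed against nearest-depth spots with TMM. With library sizes 1 of the 17 was higher, Cebpb, and 0 of the 19. The list of antigen presentation and interferon genes was higher in all 4 sections as well, by 0.24 ± 0.11 (n = 4), with 0 of 15 tested genes past the threshold with TMM and 4 higher with library sizes. When the shares of single spots were averaged and set against all other spots, it was lower in WT2 (-0.14). The acinar enzyme list was lower in all 4 sections, by a mean log2 ratio of -0.43 ± 0.36 (n = 4), with 11 of 26 tested genes lower and 0 higher with TMM. With library sizes or abundant-gene TMM 3 were lower, Prss1, Prss3 and Spink1. The size differed between sections, from -0.03 in WT1 and -0.22 in WT2 to -0.72 in KO1 and -0.74 in KO2. Enzyme UMIs were part of the score's denominator. With them left out of it, 0 genes passed against all other spots with TMM. Try4 then had a log2 fold change of -0.88 (edgeR adjusted p = 0.413) and Spink1 -0.83 (edgeR adjusted p = 0.35). Of the Reg genes, 3 of 6 were lower with TMM (Reg2, Reg3a and Reg3b) and 0 with library sizes. In the injured epithelium list 3 of 29 were lower (Krt8, Krt19 and Tff2) and 0 higher. The integrated stress response list, to which Atf3 is linked, had 1 of 15 genes lower (Asns) and 0 higher. The list of immediate early genes had 0 of 19 past the threshold and the oxidative stress list, to which Hmox1 is linked, had 1 of 15 lower (Sqstm1). The paper used a published acute pancreatitis signature, from which the 4 genes also come. Its other 13 genes had 0 higher and 1 lower, Krt8. As summed levels against nearest-depth spots, these 13 genes were higher in 3 of 4 sections (mean log2 ratio 0.05 ± 0.11, n = 4). The immediate early list was also higher in 3 of 4 (0.09 ± 0.13). The integrated stress response, injured epithelium and oxidative stress lists were higher in 1 of 4 (-0.22 ± 0.23, -0.18 ± 0.17 and -0.09 ± 0.15). None of the lower calls in these lists of injury and stress held with library sizes against the same spots, where S100a6 of the injured epithelium list was higher. Against all other spots with library sizes, Plin2, Blvrb, Slc11a1, Fos, Dusp1, Cebpb and Hp of these lists were also higher.

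**Figure D4:**
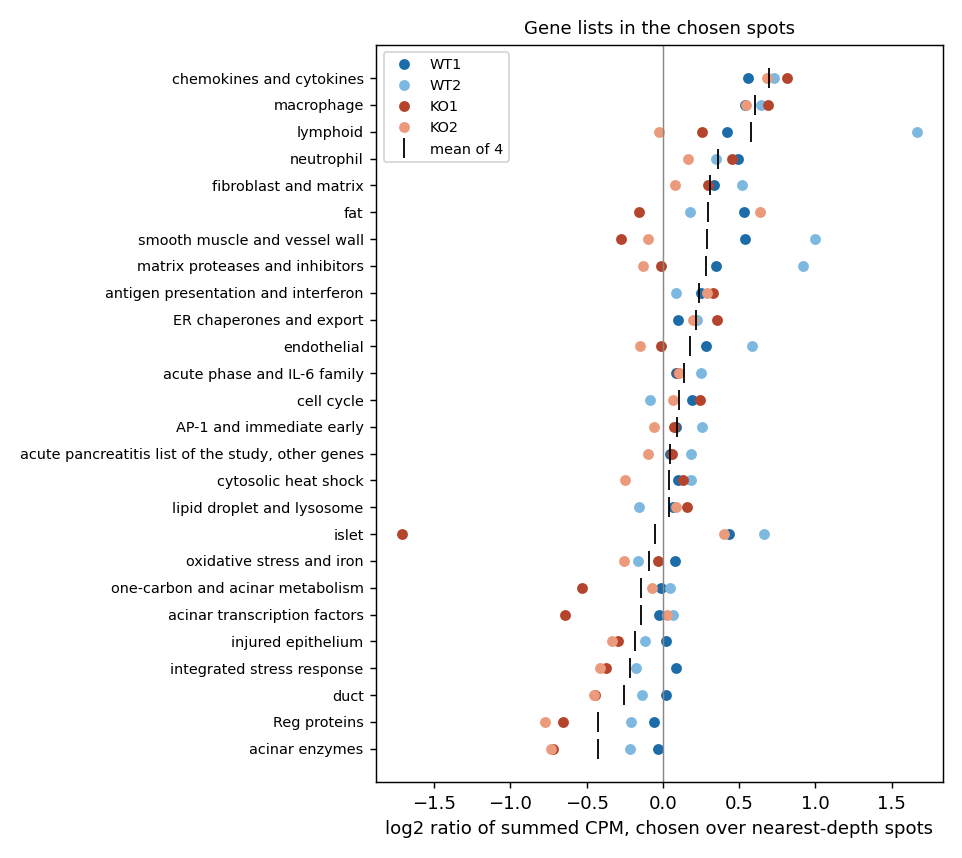
Log2 ratio of the summed level of each gene list (horizontal axis) in the chosen spots over nearest-depth spots, with 1 point per section and a bar at the mean of 4. The macrophage and chemokine lists lie right of 0 in all 4 sections, and the acinar enzyme and Reg lists lie left of 0 in all 4.

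The calls depended on Ccl9 being among the 4 genes. With TMM and all other spots compared, 5, 0, 0 and 58 genes passed when Lcn2, Ccl9, Hmox1 and Atf3 were left out in turn, so on that scale leaving out Hmox1 also ended the calls. Against nearest-depth spots only Ccl9 did so of the 4. When the spots were chosen without Ccl9, 0 of 8880 genes passed the edgeR test against nearest-depth spots, with 371 at an unadjusted p under 0.05, and DESeq2 was not run on this comparison. Chosen without Lcn2, 107 genes passed (1.24% with Lcn2 itself counted), without Hmox1 51 (0.585%) and without Atf3 82 (0.906%), and 64, 46 and 68 of these were among the 82 genes called with all 4. Without Ccl9 the log2 fold change of Mrc1 was -0.09, of Ccl6 -0.05 and of Aif1 -0.01 against nearest-depth spots, and the median over the 19 macrophage genes tested was -0.00. On the library-size scale, with all other spots compared, 8 genes passed without Ccl9, against 361, 235 and 291 without Lcn2, Hmox1 and Atf3.

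**Figure D5:**
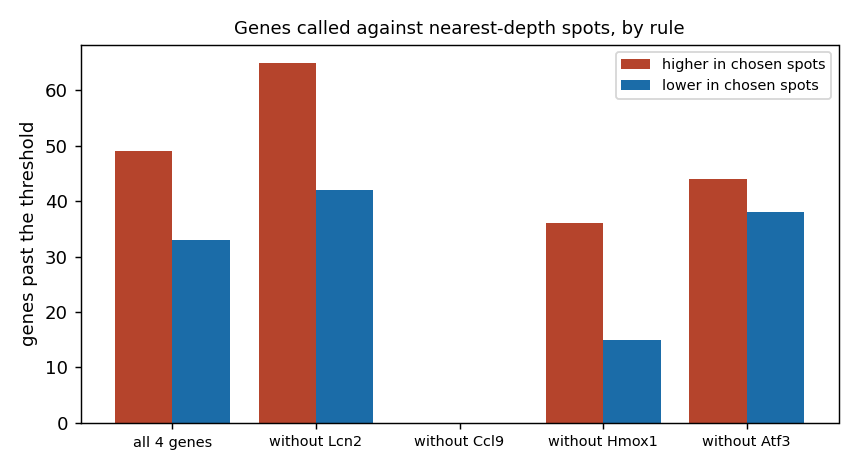
Number of genes past the threshold against nearest-depth spots (vertical axis), higher and lower, for spots chosen by all 4 genes and by 3 of them. The counts were 49 and 33 with all 4 genes and 0 and 0 without Ccl9.

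Within the chosen spots, those led by 1 gene were compared with the other chosen spots. Spots led by Ccl9 had 4 genes higher and 2 lower of 1598 tested (0.375% called). The 4 were Evi2a (log2 fold change 1.46 ± 0.30, edgeR adjusted p = 0.00094), Cfp, which encodes the complement factor properdin (1.19 ± 0.24), Pf4, platelet factor 4, which macrophages also make (0.94 ± 0.24), and Actr3, an actin-branching subunit (0.90 ± 0.23). Atp1b1, a sodium pump subunit of epithelium, and Mmp7, an epithelial protease, were lower. Without WT1, KO1 and KO2 in turn, 2, 1 and 0 genes passed, and DESeq2 called 4. Spots led by Lcn2 showed Atp1b1 higher (1.21 ± 0.28, edgeR adjusted p = 0.0096) and Ccl6 and Ccr2 lower, among 4 of 1514 genes that passed (0.264%). None of these calls held without KO1, without KO2 or with DESeq2, each with 0 genes called and 31, 46 and 33 at an unadjusted p under 0.05. The macrophage list was 7943, 5126 and 734 CPM in Ccl9-led spots of KO1, KO2 and WT1, 6585, 5049 and 465 in Hmox1-led spots, and 4664, 2665 and 479 in Lcn2-led spots. The genes lower in Ccl9-led and in Lcn2-led spots were named after their values were seen. Hmox1-led spots had 1 gene of 1270 higher, Ighj1, an immunoglobulin segment (0.0787%), with 0 genes called without WT1, WT2 or KO2 and with DESeq2 (12, 140, 30 and 6 at an unadjusted p under 0.05), and Atf3-led spots, 18 in all, had 0 of 427 by edgeR, with 13 at an unadjusted p under 0.05 and 0 by DESeq2.

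The 2 genotypes were also taken apart. With TMM over abundant genes, the KO sections alone gave 102 genes higher and 183 lower (1.43% called) and the WT sections alone 10 and 20 (0.198%). The test of the difference itself called 370 of 19750 genes with TMM (1.87%), 362 of them relatively higher in KO, with a median over all genes of 0.58, and 50 with library sizes (0.253%), 47 of them relatively lower. Against nearest-depth spots it called 2 of 8241 genes (0.0243%), both relatively lower in KO: Ighj1, and Chga, the granin of endocrine cells. Chga stood at 239.2, 146.1, 62.7 and 124.9 CPM in the chosen spots of WT1, WT2, KO1 and KO2, and at 137.4, 121.7, 232.7 and 131.2 CPM in nearest-depth spots. It was higher in both WT sections, lower in KO1 and close to level in KO2, so the KO value rested mainly on KO1. The islet list, which holds Chga, stood at 1098 CPM in chosen and 3589 CPM in nearest-depth spots of KO1. In KO2 it stood at 1548 and 1174 CPM. The comparison spots of KO1 were thus rich in islet transcripts. The smaller number of calls in WT does not by itself show that the genotypes differ.

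KO was compared with WT within the chosen spots, where 319 of 4483 genes passed with TMM (7.12%), 194 higher and 125 lower. With library sizes 2031 passed (45.3%), 1957 higher and 74 lower, and the median log2 fold change of all genes was 1.37 in place of 0.17. Among the lower were Clps, pancreatic colipase, with 1705, 1358, 149.0 and 132.4 CPM in WT1, WT2, KO1 and KO2 (log2 fold change -4.57 ± 0.53 with TMM, edgeR adjusted p = 0.00812, and -3.45 ± 0.37 with library sizes, edgeR adjusted p = 0.000961), Cela2a, Reg2, Dmbt1 and Rbpjl, an acinar transcription factor. Of 26 digestive enzyme genes tested, 22 were lower and 0 higher with TMM. With library sizes 22 were lower and 2 higher, Prss1 and Prss3. The genotypes also differed outside the chosen spots. In the other spots the acinar enzyme list stood at 628253, 528016, 224483 and 216034 CPM in WT1, WT2, KO1 and KO2. In the chosen spots it stood at 607139, 452204, 123793 and 106252 CPM. The lower enzyme level in KO was thus not particular to the chosen spots. The 5 genes with the largest increase, Gm21310, Gm20914, Gm21118, Gm20825 and Gm20854, lie on the Y chromosome and belong to a family of near-identical copies, so their counts are uncertain. They had 1 UMI in all in the chosen spots of both WT sections. The Y-linked genes Ddx3y, Eif2s3y, Kdm5d and Uty had 1 UMI in the chosen spots of the WT sections and 25 in those of the KO sections, so genotype and sex cannot be told apart here. Xist had 0 UMIs in the spots of every section, with or without Y-linked transcripts, and gives no reading of sex. The count was not stable: without WT2 it was 2117 (795 higher and 1322 lower), and without KO1 it was 0, with 167 at an unadjusted p under 0.05 in the edgeR test.

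Ehmt2 itself was too sparse in the chosen spots to compare. It had 36, 0, 3 and 3 UMIs in the chosen spots of WT1, WT2, KO1 and KO2, or 20.5, 0, 11.8 and 11.4 CPM, and 19.7, 3.99, 10.0 and 12.1 CPM in the other spots, from 829, 31, 64 and 93 UMIs. In the other spots both KO sections lay above WT2 and below WT1, so its level did not separate the genotypes. Its log2 fold change between chosen and other spots was -0.59 ± 0.41 (edgeR adjusted p = 0.657). The deletion removes part of the gene in epithelium, and whether the probes lie inside that part was not tested.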

How the data were processed

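The authors captured transcripts from formalin-fixed sections on barcoded spots and processed them with Space Ranger 2.0.1 (per the file headers) against mm10. The deposited files hold UMI counts per gene and spot, 1 matrix per section. Spot positions were not used here. Features marked deprecated (304 of 32589) were left out. They held 0.477% to 0.803% of the UMIs of a section, which leaves 32285 genes. All listed barcodes of KO1 were listed for KO2 (14008), since every slide carries the same barcodes, and at most 15 chosen spots of a pair of sections shared one.

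Counts were summed per section over chosen and over other spots and tested with edgeR 4.0.16 (quasi-likelihood) in R, with the section as a block, TMM factors, a filter on low counts (filterByExpr, minimum 10) and Benjamini-Hochberg adjustment at 0.05. The 4 genes of the score stayed in library sizes and out of the test. Fits were tested on simulated data, where TMM over all genes shifted folds downwards when sums differed in depth. It was kept because it had been set as the main scale, and library sizes, TMM over genes with at least 10 UMIs in every sum and nearest-depth spots are given beside it. DESeq2 was an alternative. The SE of a fold was its absolute log2 value divided by the square root of the F statistic of the edgeR quasi-likelihood test. For gene lists, ± gives the SD over the 4 sections.

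The genes of the score, the gene lists and the tests were chosen with earlier results of these data known. Named genes were those past the threshold with 1 direction of CPM in all 4 sections and at least 50 UMIs (12 higher and 8 lower at most), the 5 most changed each way between genotypes, the 5 highest with at least 20 UMIs in spots led by a gene, and the 4 most abundant of each list. Some genes that the rule names are not reported here.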

Additional observations from a re-analysis of the deposited data

Results flagged for a closer look

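The member-to-other fold differed between genotypes for 10 named genes in the edgeR test of the difference with TMM factors. In KO relative to WT the fitted log2 difference was 9.02 for Fiz1, 8.91 for Cks1b, 8.65 for Tpbgl, 4.02 for Nsun3 and 3.88 for Spon2. In the chosen spots of WT1 and WT2 these genes had 0 or 1 UMI each, so these fitted values are not bounds. The difference was -4.77 for Ccdc65, -3.14 for Ighj1, -2.28 for Igkc, -1.69 for Gcg and -1.53 for Chga. The islet list, which holds Gcg and Chga, was 7311 CPM in the other spots of KO1. It was 1184, 887.9 and 1133 CPM in those of WT1, WT2 and KO2. With library sizes Ighj1, Igkc, Gcg and Chga passed and the other 6 did not. DESeq2 called 0 genes (153 at an unadjusted p under 0.05), and edgeR called 7 without KO1. Against nearest-depth spots, Ighj1 and Chga passed the threshold. The median over all genes was 0.58 with TMM and 0.01 with library sizes.

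Spots under 500 UMIs, which no comparison used, also held UMIs of the 4 genes. Their summed level there was 1194 CPM in KO1 and 1061 CPM in KO2, above the 133.8 and 176.6 CPM of WT1 and WT2. In spots with at least 500 UMIs the levels were 980.5, 891.2, 73.3 and 111.7 CPM in the same order.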

How the results depend on the processing

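The count of genes for chosen against other spots was 106. It was 59 with DESeq2, 282 with library sizes, 59 without the enzyme genes, 180 with 100 and 52 with 600 spots per section, 0 with at least 1000 UMIs per spot, 18 with at least 3 UMIs of the 4 genes, 0 with enzyme UMIs left out of the score, 0 with no section block and 199 with TMM over abundant genes. Chosen without Lcn2, Ccl9, Hmox1 or Atf3 it was 5, 0, 0 and 58. It was 1 in the WT and 235 in the KO sections, or 30 and 285 with TMM over abundant genes. Leaving out 1 section gave 48 to 99, with 67 without KO1 and 48 without KO2. Against nearest-depth spots it gave 11 to 155: 155 without WT1, 68 without WT2, 11 without KO1 and 20 without KO2.

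Genotype within the chosen spots gave 319 genes, and 119 with DESeq2, 2031 with library sizes, 194 without enzyme genes, 11 with no filter, 138 and 2846 with 100 and 600 spots, 994 with at least 1000 UMIs and 2771 with at least 3 UMIs of the 4 genes. Leaving out 1 section gave 0 to 2117: 96 without WT1, 2117 without WT2, 0 without KO1 and 11 without KO2. The genotype difference of the fold gave 370 genes, and 0 with DESeq2, 50 with library sizes, 164 without enzyme genes, 31 and 25 with 100 and 600 spots, 108 with at least 1000 UMIs, 1114 with at least 3 UMIs of the 4 genes, 841 with the other denominator, 23 with TMM over abundant genes, and 2, 34 and 2 against nearest-depth spots with TMM, library sizes and abundant-gene TMM. Leaving out 1 section gave 7 to 270: 23 without WT1, 7 without KO1 and 128 without KO2.

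For spots led by Lcn2, Ccl9, Hmox1 and Atf3 the counts were 4, 6, 1 and 0. They were 7, 12, 3 and 1 with library sizes, and 313, 0, 274 and 1 with no filter. DESeq2 gave 0 for Lcn2 and 0 for Hmox1. Leaving out 1 section gave 0 to 7, 0 to 11, 0 to 4 and 0 to 1.

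Folds of the 4 genes changed sign in some settings. With UMIs split in 2, where each gene took part in the choice, Lcn2 was 0.25 with library sizes and 0.14 with abundant-gene TMM, Atf3 0.18 and 0.043, and Ccl9 1.29 and 1.17, or 0.72 with TMM. Ccl9 held out was 0.065 with library sizes, and 0.066 so without WT2. Lcn2 was -0.65 and passed against nearest-depth spots, and -0.70 without WT2. Leaving out 1 section gave -1.0 to -0.83 for Lcn2, -0.38 to -0.07 for Ccl9, -0.20 to 0.29 for Hmox1 (-0.14 without KO1, -0.20 without KO2) and -1.02 to -0.53 for Atf3. Chosen without Ccl9, Mrc1 was -0.13 and Ccl6 -0.22 against other spots. The mean ratios of the macrophage, chemokine, neutrophil, fibroblast, acute phase, ER chaperone, acinar enzyme and Reg lists kept their sign in all settings tried for them. The cause of these changes was not tested. No paired analysis was possible because the labels number no replicates across genotypes, and the digits in WT1, WT2, KO1 and KO2 only name the sections. Chosen and other spots were compared within sections throughout, other than with no section block. The alternatives with abundant-gene TMM, single genotypes, nearest-depth spots on other scales or without a section, split UMIs on other scales, and held-out genes with library sizes or without WT2 on another scale or against nearest-depth spots were chosen after seeing the data. WT2, with 63 chosen spots and 68458 UMIs in them, limits every comparison of 4 sections.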
